A study of Mus musculus with 2 samples.

Results

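mmu-miR-122, mmu-miR-192, mmu-miR-194, mmu-miR-215, mmu-miR-216a, mmu-miR-216b and mmu-miR-217 are mouse miRNAs of endodermal organs (the species prefix is left out from here on). Their array signals were followed in the mammary flank of the embryo, both in its 3rd mammary gland and between the glands (inter mammary gland region). The rule that chose them uses their names alone, though it was written with earlier results of these data known. They were chosen as miRNAs expected to be low in the flank, and they are 7 of the 696 miRNAs on the array. The embryos were untreated ICR mice at E13.5. The inter mammary gland region, named the flank below, is the piece of body wall that separates the 3rd gland from the 4th. Cy3-labelled target from 100 ng of total RNA of each region was hybridized to 1 Agilent 1-colour miRNA array, with no replicate. The sources used here do not give the number of embryos in each RNA sample. Both arrays share 1 slide and 1 scan. No difference between the regions therefore has a replicate check, no test was run, and errors are over the spots of a probe, which are technical.

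miRNAs are short RNAs cut from hairpin precursors, and the bases 2 to 8 of the mature strand, the seed, choose most of the mRNAs that they repress. miR-122 is the abundant miRNA of hepatocytes. miR-192, miR-194 and miR-215 are known from the epithelium of the intestine and from liver and kidney, where hepatocyte nuclear factors drive their genes. miR-216a, miR-216b and miR-217 are known from the acinar cells of the pancreas. None of these organs is part of the mammary bud, which at E13.5 is a ball of skin-derived epithelium within a condensed mesenchyme. The question here was how far the signals of the 7 miRNAs stood above the negative control spots in either region.

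The sequences are shown because the members come from shared precursors and some differ by few bases, which bears on what a hybridization signal can tell apart. Of the 7 names, 6 (all but miR-122) matched a mature miRNA of RefSeq on the mouse build GRCm38.p6. The files name no arm and hold no probe sequence, and the 5p strand, which the older name without a suffix stands for, is given. The capitals mark the seed.
miR-192: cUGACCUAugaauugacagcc
miR-215: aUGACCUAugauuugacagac
miR-194: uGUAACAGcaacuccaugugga
miR-216a: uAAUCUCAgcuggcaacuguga
miR-216b: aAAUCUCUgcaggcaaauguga
miR-217: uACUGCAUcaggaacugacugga
miR-192 and miR-215 share their seed and are identical at 18 of 21 bases. Counted from the 5′ end, with the base of miR-192 first, they differ by C1A, A12U and C20A. No other mature miRNA of the RefSeq table carries that seed. miR-216a and miR-216b are identical at 18 of 22 bases, and 1 of the 4 differences, A8U, is the last base of the seed. The seeds of miR-194, miR-216a, miR-216b and miR-217 are each shared with no other entry of the table.

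The genes lie in clusters on the plus strand. Mature miR-192 was placed at chr19:6264857-6264877, and the hairpin of Mir192 starts 115 bases after that of Mir194-2 ends. Mature miR-194 is the same sequence from both of its genes, at chr19:6264658-6264679 and at chr1:185313325-185313346. The second of these genes, Mir194-1, is 195 bases before Mir215 (mature strand at chr1:185313610-185313630), and both lie within the extent of Iars2, a protein-coding gene of tRNA charging in mitochondria. A signal of miR-194 can therefore come from either cluster, and the array does not tell them apart. On chromosome 11 mature miR-216b was at chr11:28746204-28746225, miR-216a at chr11:28757018-28757039 and miR-217 at chr11:28763761-28763783. 10735 bases separate the hairpins of miR-216b and miR-216a, and 6644 those of miR-216a and miR-217. The array has 0 probes for the passenger strand of any of the 7.

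There were 14635 spots on an array, 13920 of them for the 1937 miRNA probes, and 0 were saturated. The authors deposited a background-subtracted intensity for each spot, on a linear scale that can be negative. The 7 members had 20 probes and 140 spots on each array, of which 5 spots in the 3rd gland and 3 in the flank were marked as outliers by the software and left out. The signal of a miRNA is the mean over its probes. Detection asked that over 50% of the spots of a probe be well above background, and a miRNA counted as detected through any such probe. The negative control spots averaged 3.81 ± 5.28 (SD over 432 spots) in the 3rd gland, with a highest value of 17.3. In the flank they averaged 2.23 ± 5.07 (SD over 428 spots), with a highest value of 19.2. Each of these means and SDs pools 7 control probes, which differed in level. Before a region was compared with the other, the array of the 3rd gland was brought to the scale of the other array with the 75th percentile over probes that both detected, and such values are called scaled.

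miR-192 and miR-194 were detected in the 3rd gland and only miR-192 in the flank. That is 2 of 7 members where 42.5% of all miRNAs on the array were detected, and 1 of 7 where 43.1% were. Both regions detected 1 of 7 members (40.8% of all miRNAs) and neither region 5 of 7 (55.2%). miR-122 was dim in both regions and brighter in the flank. miR-215, miR-216a, miR-216b and miR-217 had no signal above the negative controls. By a second measure, a probe whose mean was above the highest negative control spot, the count was 2 of 7 in the 3rd gland (48.7% of all miRNAs) and 3 of 7 in the flank (47.3%), where miR-194 and miR-122 joined miR-192. This second count rests on how it is made. In the flank miR-122 passed through 1 probe, and its mean over both probes (17.6) was below the highest control, which leaves 2 of 7. With outlier spots kept it was 0 of 7 in the flank, because 1 negative control spot there was then brighter than every probe mean of the members. Feature Extraction, the software that read the scans, makes its own call for a miRNA and gave 2 of 7 in the 3rd gland (48.1% of all) and 3 of 7 in the flank (48.0%), again with miR-194 and miR-122.

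**Figure D1:**
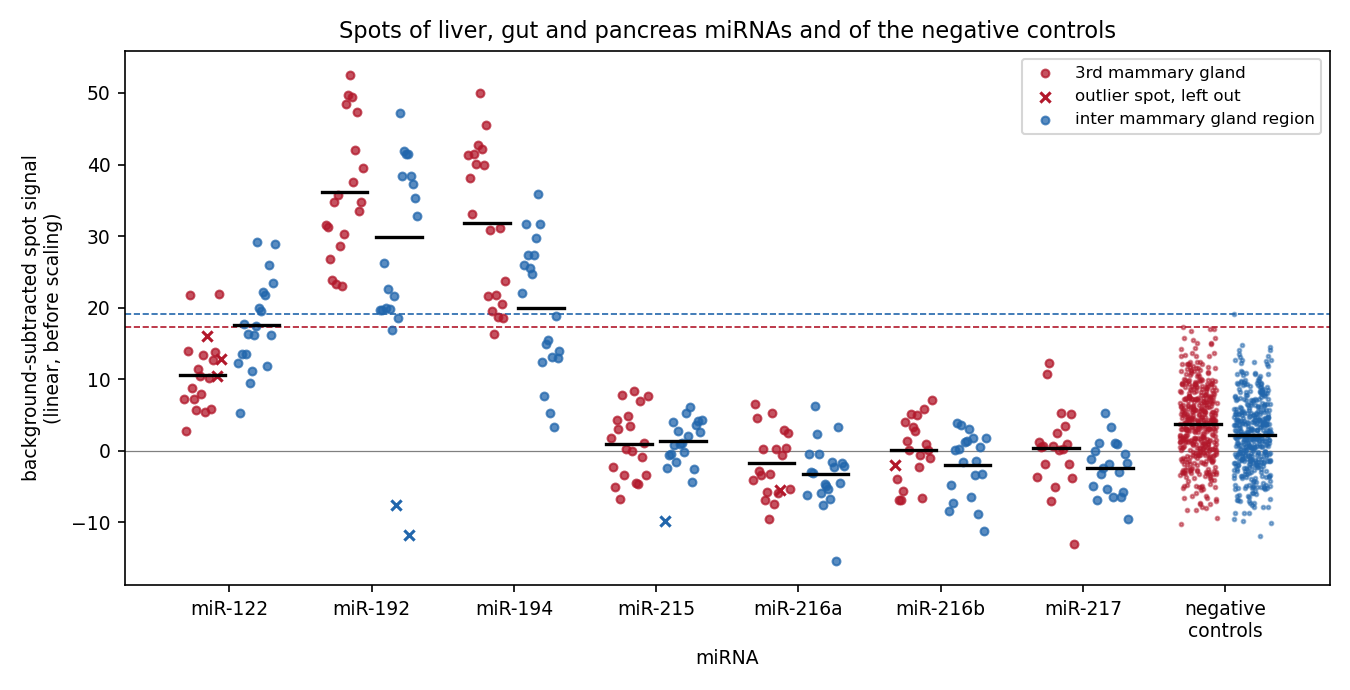
Background-subtracted signal of every spot of the 7 miRNAs and of the negative controls (vertical axis, linear, before scaling) in the 3rd gland (red) and the flank (blue). Short black bars are means of the spots used, crosses are outlier spots left out, and dashed lines mark the highest negative control spot of each array (17.3 and 19.2). The spots of miR-192 in both regions and of miR-194 in the 3rd gland lie mostly above the lines, those of miR-194 in the flank on both sides of them, those of miR-122 mostly below, and those of the other 4 miRNAs all below.

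miR-192 was the brightest of the 7 in both regions. Its signal was 36.2 in the 3rd gland and 29.9 in the flank. It was dim among detected miRNAs, whose median signal was 205 and 203, and only 38 detected miRNAs had a lower signal in the 3rd gland and 30 in the flank. A signal depends on its probe, so this order is one of signals and not of RNA amounts.

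The brighter probe of miR-192 (A_54_P2461) gave 43.5 ± 6.87 (SD over 10 spots) in the 3rd gland and 39.3 ± 4.20 (SD over 9 spots) in the flank. All of these spots were well above background, from 33.5 to 52.5 and from 32.8 to 47.2. The ranges overlapped almost wholly, and after scaling the ratio for this probe, 3rd gland over flank, was 1.01. The dimmer probe (A_54_P2460) gave 28.9 ± 4.61 (SD over 10 spots) and 20.6 ± 2.69 (SD over 9 spots). It was not detected in either region, with 5 of 10 and 0 of 9 spots well above background, though 10 of 10 and 7 of 9 exceeded every negative control spot.

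The ratio of miR-192 over both probes was 1.10 (SE 0.0504 over spots), which is 0.096 on the log2 scale above the median of the 284 miRNAs detected in both regions. This distance from the median had no stable sign, at -0.015 after normexp background correction, -0.00070 with the brightest probe and 0.30 with outlier spots kept. The brighter probe showed next to no difference, so the ratio came from the probe that was below the rule for detection. The signal of miR-192 thus differed little between the regions, and by less than 1.5-fold under every alternative that was run. Across all 312 miRNAs detected in at least 1 region, 3.21% passed 1.5-fold upward and 9.94% passed it downward in the 3rd gland, and miR-192 and miR-194, the 2 members among these 312, were in neither set. The other 5 members were detected in neither region and could not enter them. In the flank, both outlier spots of miR-192 were below 0 (-7.54 and -11.7) and lay in the first column of the array, where 11.9% of the miRNA spots were outliers against 2.40% elsewhere on that array. With these spots kept the ratio was 1.27.

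miR-194 was the second brightest. Its signal was 31.8 in the 3rd gland and 20.0 in the flank. The brighter probe (A_54_P1151) gave 41.4 ± 4.46 (SD over 10 spots) in the 3rd gland, where 10 of 10 spots were well above background. In the flank it gave 28.2 ± 4.08 (SD over 10 spots), with 4 of 10 spots well above background, which is short of the rule for detection, though 10 of 10 exceeded every negative control spot. The spots ran from 33.02 to 50.01 in the 3rd gland and from 22.01 to 35.92 in the flank, so the dimmest of the first overlapped the brightest of the second.

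The dimmer probe of miR-194 (A_54_P1152) went the same way, with 22.3 ± 5.05 (SD over 10 spots) in the 3rd gland and 11.8 ± 4.85 (SD over 10 spots) in the flank. After scaling, 17 of 20 spots of miR-194 were brighter in the 3rd gland than the spot at the same place on the other array. Among miRNAs outside the 7 that neither array detected, the share was 57.5% of 7307 spots. The median signals of those miRNAs were 2.10 in the 3rd gland and 0.379 in the flank, so the 2 shares are not of like signals. The quotient of the scaled signals of miR-194 was 1.45 (SE 0.0875 over spots), and since it was not detected in the flank a fold was taken only as a bound. Set against the dimmest single probe detected there (27.1), the scaled signal of miR-194 in the 3rd gland was 1.08-fold higher. This bound is not strict, since a probe below the rule for detection can exceed that floor, as the brighter probe of miR-194 did in the flank (28.2). For the brighter probe, whose own signal in the flank was above that floor, the value was the plain quotient of 2 measured means, 1.34, and not a bound. The quotient depended on the processing. It was 1.59 with no scaling and 2.01 with the software's total signals, which sum 2 probes in the 3rd gland and 1 in the flank. It was 1.096 after the normexp background correction of the median pixel signal, whose offset of 50 draws quotients of dim miRNAs toward 1.

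**Figure D2:**
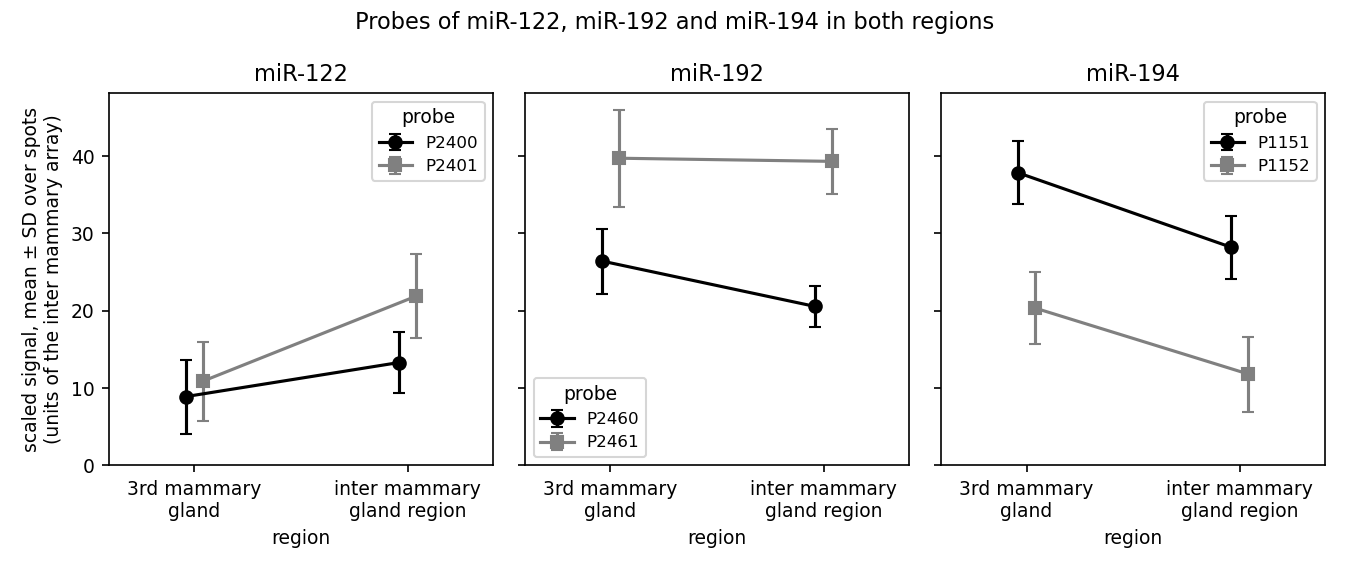
Scaled signal of each probe of miR-122, miR-192 and miR-194 (vertical axis, mean ± SD over the spots of 1 array, in units of the array of the flank) in both regions, with lines that join the values of 1 probe. Both probes of miR-194 fall toward the flank, both of miR-122 rise, and the brighter probe of miR-192 is level at 39.7 and 39.3.

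Whether the quotients of miR-192 and miR-194 differ could not be tested with 1 array per region. The other product of these clusters, miR-215, was at background in both regions. Its signal was 0.941 in the 3rd gland and 1.34 in the flank, below the mean of the negative controls on each array. Of its spots, 0 of 20 and 0 of 19 exceeded every negative control spot. miR-215 differs from miR-192 by 3 bases, shown above. The probe sequences are not in the files used here, and cross-hybridization between the members was not tested.

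miR-122 was not detected in either region by the share of spots, and no fold is given. Its signal was 10.8 in the 3rd gland and 17.6 in the flank, which is 1.33 and 3.03 control SDs above the mean of the negative controls. The control SD is that of single spots, while each signal is a mean over spots, with an SE of 1.34 in the 3rd gland and 1.06 in the flank. The first probe (A_54_P2400) gave 9.74 ± 5.25 (SD over 10 spots) in the 3rd gland and 13.3 ± 3.92 (SD over 10 spots) in the flank. The second probe (A_54_P2401) gave 11.9 ± 5.60 (SD over 7 spots) in the 3rd gland and 21.9 ± 5.43 (SD over 10 spots) in the flank. All ranges overlapped, and both probes were brighter in the flank. Spots well above background numbered 0 of 17 in the 3rd gland and 2 of 20 in the flank, and spots brighter than every negative control numbered 2 and 8. In the flank 19 of 20 spots were positive and significant by the software's test against background, and in the 3rd gland 15 of 17, where 24.1% and 36.3% of the negative control spots were.

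The scaled signal of miR-122 was lower in the 3rd gland by a difference of -7.70 (SE 1.62 over spots). At the same place on both arrays, 16 of 17 spots were brighter in the flank after scaling and 13 of 17 before it. Medians over undetected miRNAs and over negative control spots were above 0, and the background at the probes of miR-122 itself was not tested. The other 379 miRNAs detected on neither array differed by a median of 1.31, with 5% below -2.65 and 5% above 4.52. Only 8 of them had a difference lower than that of miR-122. This rank is not among like signals, since their median signal in the flank was 0.379 (highest 21.7), against 17.6 for miR-122. It also leaves out every miRNA detected on either array. The 426 negative control spots measured on both arrays differed by a median of 1.52. The difference was below 0 under every alternative that was run. The deposited table lists miR-122 at 14.2 (error 3.90) for the flank and at 0.1 for the 3rd gland. The latter is a stand-in for a miRNA not called detected, and not a measured signal.

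**Figure D3:**
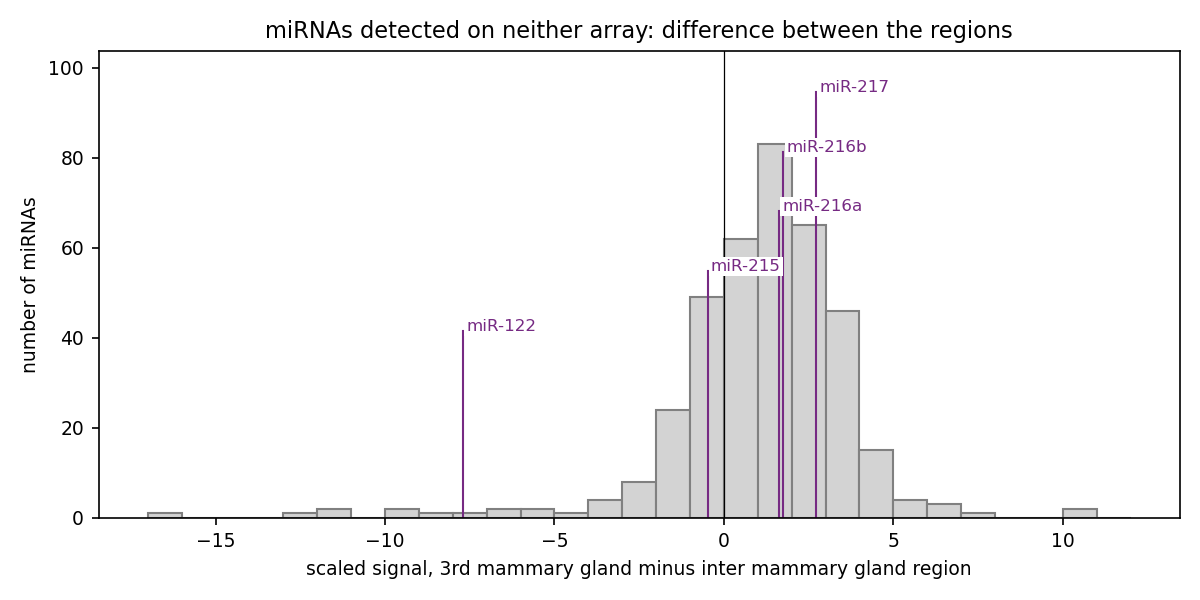
Number of miRNAs (vertical axis) by difference in scaled signal, 3rd gland minus flank (horizontal axis), for the other 379 miRNAs detected on neither array (grey), with the 5 members detected on neither array as lines whose height carries no value. miR-122 lies at -7.70, below all but 8 of the grey miRNAs, most of which were dimmer than it in the flank. The other 4 members lie between -0.48 and 2.71, within the middle of the grey miRNAs.

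The pancreatic miRNAs were the dimmest of the 7. miR-216a gave -1.69 in the 3rd gland and -3.17 in the flank. miR-216b gave -0.2004 and -1.94, and miR-217 gave 0.398 and -2.35. All were below the mean of the negative controls of their array, by 0.65 to 1.04 control SDs in the 3rd gland and by 0.82 to 1.06 in the flank. That SD is of single control spots. The controls pool 7 probes that differ in level, and these miRNAs were not set against each control probe alone. With miR-215 these miRNAs had 14 probes. On both arrays the means of all 14 were below the mean of the negative controls, as were those of 68.4% and 68.5% of the probes of the other 379 undetected miRNAs. The probe means ran from -5.84 to 2.78 in the 3rd gland and from -4.75 to 2.12 in the flank.

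Of the spots of these 4 miRNAs, 0 of 78 in the 3rd gland and 0 of 79 in the flank were well above background or brighter than every negative control spot. The brightest single spot, of miR-217 in the 3rd gland, was 12.3. Spots that the software's test called positive and significant made up 11.5% and 2.53%, fewer than among the negative controls. No difference between the regions could be read for them at this signal. Their scaled differences, from -0.48 for miR-215 to 2.71 for miR-217, lay between -2.65 and 4.52, the span given above for the other undetected miRNAs. A signal at background sets a limit on this array only, and does not show that the RNA was absent.

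The low signals of the 7 were set beside lists of miRNAs of other tissues on the same arrays. The markers of the labelled tissues were well measured. All 7 miRNAs of skin epithelium (the miR-200 family with miR-141 and miR-429, miR-203 and miR-205) were detected in both regions, with signals from 315 to 5334 in the 3rd gland and from 249 to 4947 in the flank. The 3 mesenchymal miRNAs on the array (miR-199a-3p, miR-199a-5p and miR-214) were detected in both, from 2964 upward. The 4 of striated muscle and 5 of 6 of blood cells were detected in both regions as well. Of all miRNAs on the array, 40.8% were detected in both. The 7 members ran from -1.69 to 36.2 and from -3.17 to 29.9, so the highest of these signals was below that of every member of the epithelial, muscle and mesenchymal lists. Of the blood list, miR-142-5p (26.9 and 20.2) was dimmer than miR-192, and the 5 detected in both regions were brighter.

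**Figure D4:**
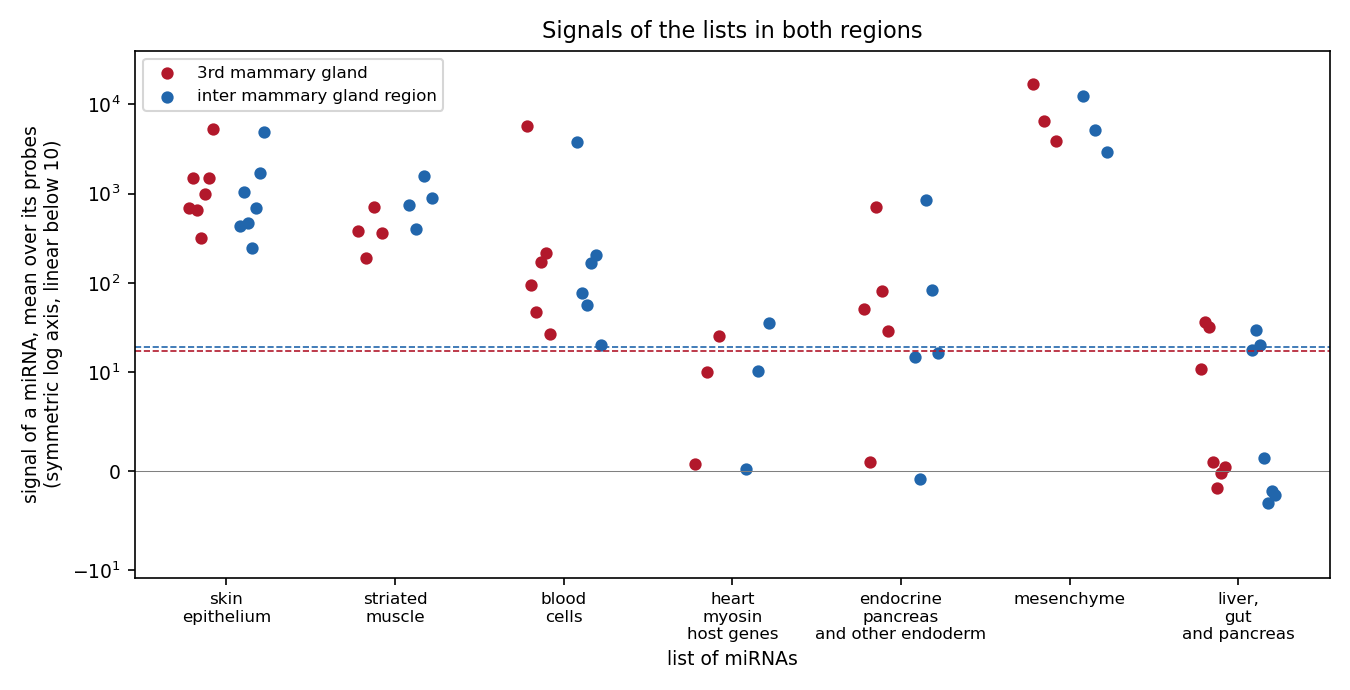
Signal of each miRNA, as the mean over its probes before scaling (vertical axis, symmetric log scale that is linear below 10), by list and by region (3rd gland red, flank blue). Dashed lines mark the highest negative control spot of each array. The liver, gut and pancreas miRNAs span -3.17 to 36.2, and the epithelial, muscle and mesenchymal lists lie at 190 or more. The blood list reaches down to 20.2 and overlaps the former.

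miRNAs made from the introns of myosin genes of heart and slow muscle were at a like level. miR-208a (0.748 and 0.273) and miR-208b (10.2 in both) were detected in neither region, and miR-499, with 25.7 in the 3rd gland and 35.9 in the flank, in the latter only. Among other miRNAs of pancreas and endoderm, miR-802 was at background in both regions (0.922 and -0.757), like miR-216a, miR-216b and miR-217. miR-375, known from the islets of the pancreas, was instead detected in the 3rd gland (50.5) and not in the flank (14.6). Its scaled signal in the 3rd gland was 1.71-fold that of the floor in the flank, which is not a strict bound. miR-338-3p was detected in both regions (28.6 and 16.4), with a ratio of 1.598. miR-148a (706 and 850) and miR-7a (81.7 and 82.6), which many tissues express, were detected in both. Of these lists, that of endoderm was mixed. Among the 5 endodermal miRNAs outside the 7, 4 were detected in the 3rd gland (42.5% of all miRNAs) and 3 in the flank (43.1%).

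Of the lists for the labelled tissue, that of striated muscle differed between the regions. All 4 striated muscle miRNAs passed 1.5-fold downward in the 3rd gland, as did 9.94% of the 312 miRNAs detected in at least 1 region. The muscle ratios ran from 0.372 to 0.460, with summed scaled signals of 1504 and 3610 in the 3rd gland and the flank. Of the 7 epithelial miRNAs 0 passed 1.5-fold, where 3.21% of the 312 passed it upward and 9.94% downward. The epithelial ratios ran from 0.805 to 1.43, with summed scaled signals of 10010 and 9530. None of the markers of either list was at 0. The part of the cell make-up of the dissected regions in the values of miR-122 and miR-194 was not tested, and in such tissue samples fewer cells of a type and less RNA per cell cannot be told apart.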

How the data were processed

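Total RNA of both regions was labelled with Cy3 and hybridized to Agilent mouse miRNA arrays. The authors read the scans with Feature Extraction 10.7.3.1 (per the file headers), which subtracts a background from each spot. The intensity they deposited is on a linear scale, with values below 0 and no scaling of one array to the other. A further table holds the software's total intensity per miRNA, with 0.1 as a stand-in where it called none detected, and equals the totals of the scanner files for all 696 miRNAs. The methods state that data were normalized in GeneSpring GX, without the method of normalization.

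From the spot intensity, outlier spots (1.67% of miRNA spots in the 3rd gland, 2.51% in the flank) and control spots were dropped, then the spots of a probe averaged, arrays scaled, and the probes of a miRNA averaged. Negative control spots were those of control type -1. With 1 array per region, the number of arrays limits the precision, and no p-value was computed. A bound took as floor the dimmest probe detected on an array (30.7 in the 3rd gland, 27.1 in the flank). A quotient was given for miR-192 and miR-194 and a difference for miR-122, as set after the values were seen. All 7 members were named, with other miRNAs from the lists of tissue markers. The members and lists were chosen with earlier results of these data known. The steps were tested on simulated spots, scored only for miRNAs detected on both arrays. The bounds and the values of undetected miRNAs were not covered by it. Alternatives covered detection, control threshold, scaling, signal column, background correction, probes and outlier spots. The planned normexp correction was run on the median pixel signal, in place of the mean signal, with an offset of 50. Of the list names, miR-199b was not matched on the array. Python 3.11.15, numpy 2.4.6, pandas 2.3.3, matplotlib 3.10.9, R 4.3.3 and limma 3.58.1 were used. Coordinates are those of RefSeq on GRCm38.p6, and none was taken from the array, whose grid names another build.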

Additional observations from a re-analysis of the deposited data

How the results depend on the processing

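The 2 members detected in the 3rd gland were miR-192 and miR-194 under all 4 alternatives, and the same 2 were above the negative controls under all 4. In the flank 3 members (miR-122, miR-192 and miR-194) were detected, in place of 1, with at least 1 spot well above background and by Feature Extraction's own call, and 0 in place of 3 were above the controls with outlier spots kept. With the mean over all probes it was 2, without miR-122. 2 members in place of 0 passed 1.5-fold with the software's total signals, scaled, and equally with the values of the deposited table, miR-194 higher and miR-122 lower in the 3rd gland. Under the other 10 alternatives, the 2-fold threshold and the floor at the lowest detected miRNA among them, the count was 0.

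The ratio of miR-192, 1.10, was 1.21 with no scaling, 1.23 when all probes gave the 75th percentile, 1.20 with the median of the probes, 1.21 after quantile normalization, 1.01 after normexp, 1.01 with the brightest probe and 1.27 with outlier spots kept. The quotient of miR-194, 1.45, was 1.59, 1.62, 1.58 and 1.59 under the same 4 scalings, 2.01 with the total signals and with the deposited table, 1.096 after normexp and 1.34 with the brightest probe. The difference of miR-122, -7.70, was -14.1 with the total signals and with the deposited table, where the 3rd gland holds the stand-in, -5.71 after normexp and -11.0 with the brightest probe. These values moved by more than their SE over spots, and the direction of these 3 did not turn. The log2 ratio of miR-192 less the median of all did turn, from 0.096 to -0.015 after normexp and -0.00070 with the brightest probe. The scalings by 1 constant per array shift every miRNA alike. The normexp correction added an offset of 50 to every spot, more than the signal of any member. Such a constant draws the quotient of a dim miRNA toward 1. Beyond these 2 properties of the processing, the cause was not tested. The median log2 ratio of miRNAs detected in both regions was 0.048, and 0.18 with no scaling, 0.21 when all probes gave the percentile, 0.17 with the median of the probes and 0.17 after quantile normalization. Over all miRNAs 10 were higher and 31 lower past 1.5-fold, against 19 and 28 with no scaling, 23 and 27 when all probes gave the percentile, 19 and 28 with the median, 18 and 27 after quantile normalization, 27 and 47 with the total signals and 3 and 19 after normexp.

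No paired analysis was possible because there was 1 array for each region, and no replicate was left out. Signal over background limits all 7 values.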
